A study of Mus musculus with 10 samples.

Results

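Intermediate filaments are the rope-like part of the cytoskeleton, and each cell type builds them from its own set of proteins. Astrocytes polymerize GFAP, vimentin, nestin and synemin, and raise GFAP in the reactive state that surrounds amyloid plaques. Mature neurons assemble NEFL, NEFM and NEFH, the light, medium and heavy neurofilament subunits, together with alpha-internexin, and these polymers set the calibre of axons. The 8 genes *Gfap*, *Vim*, *Nes*, *Synm*, *Nefl*, *Nefm*, *Nefh* and *Ina* were chosen by name, and all 8 were found by symbol among the 53700 gene identifiers of the deposited counts.

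Cortices of 10 female mice aged 4 months were measured, 5 labelled 5XFAD;Neu cKO and 5 labelled 5XFAD. All 10 carry the 5XFAD transgenes, which include human *APP* with mutations of familial Alzheimer's disease, expressed from *Thy1* sequence in neurons. The 5XFAD;Neu cKO animals combine floxed *Idol* (*Mylip*) with *Camk2a-Cre*, which acts mainly in excitatory neurons of the forebrain, so glia and other neurons keep the gene. The controls are littermates labelled as Camk2a-cre WT. A legend of the study for the same genotypes explains WT as wild type for *Idol*, and whether the controls carry floxed alleles without Cre is not stated in the sources used here. The question was how transcripts of the cortex differ when neurons lack IDOL, the ubiquitin ligase that removes receptors of APOE.

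Reads came from the 3′ ends of transcripts, so a count does not scale with transcript length. They numbered 4320504 to 7466192 per library on genes, and are given below as CPM, counts scaled to a common library size by TMM. *Mylip* itself had 45 to 108 reads in libraries labelled 5XFAD and 50 to 148 in those labelled 5XFAD;Neu cKO, which gave 0.39 ± 0.25 (SE) as the log2 fold change (adjusted p = 0.777 with edgeR). It was thus not lower in the group whose Cre-expressing neurons should lack it. Other cells of the cortex keep the gene, and its floxed part is not given in the sources used here. Counts of a 3′ tag in whole cortex may therefore not check the deletion. Directions below therefore refer to libraries by their labels.

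The 8 genes belong to a family whose proteins share a coiled rod. A window of 10 amino acids was moved along GFAP, and in each other protein the part most like it was taken. The window with the highest summed likeness over the 8 is shown for 7 of them as codons of the canonical transcripts. Because the search was anchored on GFAP, likeness to *Gfap* is partly a product of the choice. Each line is read from the GENCODE transcripts of GRCm39, 5′ to 3′, and capitals mark codons for the same amino acid as in *Gfap*.
Gfap: GCCACCTACAGGAAATTGCTGGAGGGCGAA
Nes: GCTACATACAGGactCTGCTGGAGgctGAG
Synm: GCCACCTACAGGgccTTGTTGGAAGGAGAA
Nefl: GCAgctTACAGAAAACTCTTGGAAGGCGAA
Nefm: GCCgcgTACAGGAAACTCCTAGAGGGGGAA
Nefh: GCCgctTACAGAAAGCTCCTGGAAGGCGAA
Ina: GCAgctTACAGGAAGCTCCTGGAAGGTGAA

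The amino acids encoded by *Nefl*, *Nefm*, *Nefh* and *Ina* were the same as in *Gfap* at 9 of the 10 positions, all but the second, and those of *Synm* at 9 and of *Nes* at 8. Codons for the same amino acid often differed in their bases, with 22 to 24 of 30 bases the same as in *Gfap*. In *Gfap* (chr11:102783869-102783898, minus strand) the stretch lay whole inside exon 6 of 9. It was cut by an intron between exons 2 and 3 in *Nes*, *Synm*, *Nefl*, *Nefm* and *Ina* and between exons 3 and 4 in *Nefh*.

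Over their best aligned parts, GFAP and vimentin were 57.9% identical over 425 residues, and GFAP and NEFL 46.2% over 368. NEFL and alpha-internexin were 50.9% identical over 487 residues, while nestin and GFAP were 30.5% identical over 308. The proteins differ most in length, from 430 residues for GFAP to 1864 for nestin, with 543 for NEFL, 848 for NEFM and 1090 for NEFH. The longest run of bases shared by any pair of the 8 transcripts was 23, and no other annotated gene shared 50 bases with the last 600 of any of them, so a read from these ends had 1 annotated origin by sequence.

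*Gfap* (ENSMUSG00000020932, chromosome 11 of GRCm39, 102778159 to 102791738, minus strand) overlaps no other annotated gene. *Nefl* (chromosome 14, 68321268 to 68326544, plus strand) lies within the span of *Nefm* (68320039 to 68362305, minus strand), and no exon of the *Nefm* canonical transcript lies on an exon of *Nefl*. The first exon of *Vim* meets a long noncoding gene on the other strand, *Gm54102*, which the counts do not list. An exon of *Synm* meets *Gm45102* on the other strand, to which 20 reads in all were assigned, and *Synm* lies within the span of *Ttc23*. Annotated neighbours of *Nefh* and *Ina*, *Ap1b1* and *Nt5c2*, reach into the gene on the opposite strand without an exon of their canonical transcript on one of the member's exons.

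Of the 8 genes, 1 differed between the groups at an adjusted p under 0.05, and that was *Gfap*, which was lower under the 5XFAD;Neu cKO label. Over all 19268 genes tested the share called was 0.218%, with 0.161% called lower and 0.0571% called higher. The 8 genes were chosen with earlier results of these data known, so their count is not a fresh test against that share. DESeq2 also called 1 of the 8, *Gfap*, and 0.379% of all genes. An unadjusted p under 0.05 was found for 3 of the 8, all lower (*Gfap*, *Nefm* and *Nefh*), against 7.95% of all genes, or 4.01% counting lower ones. The other 7 filament genes did not pass, with log2 fold changes from -0.35 to 0.28. By sign, 6 of the 8 were lower, against 50.1% of all genes, and *Nes* and *Synm* were higher, with a median log2 fold change of -0.072 against -0.00056 over all genes.

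**Figure D1:**
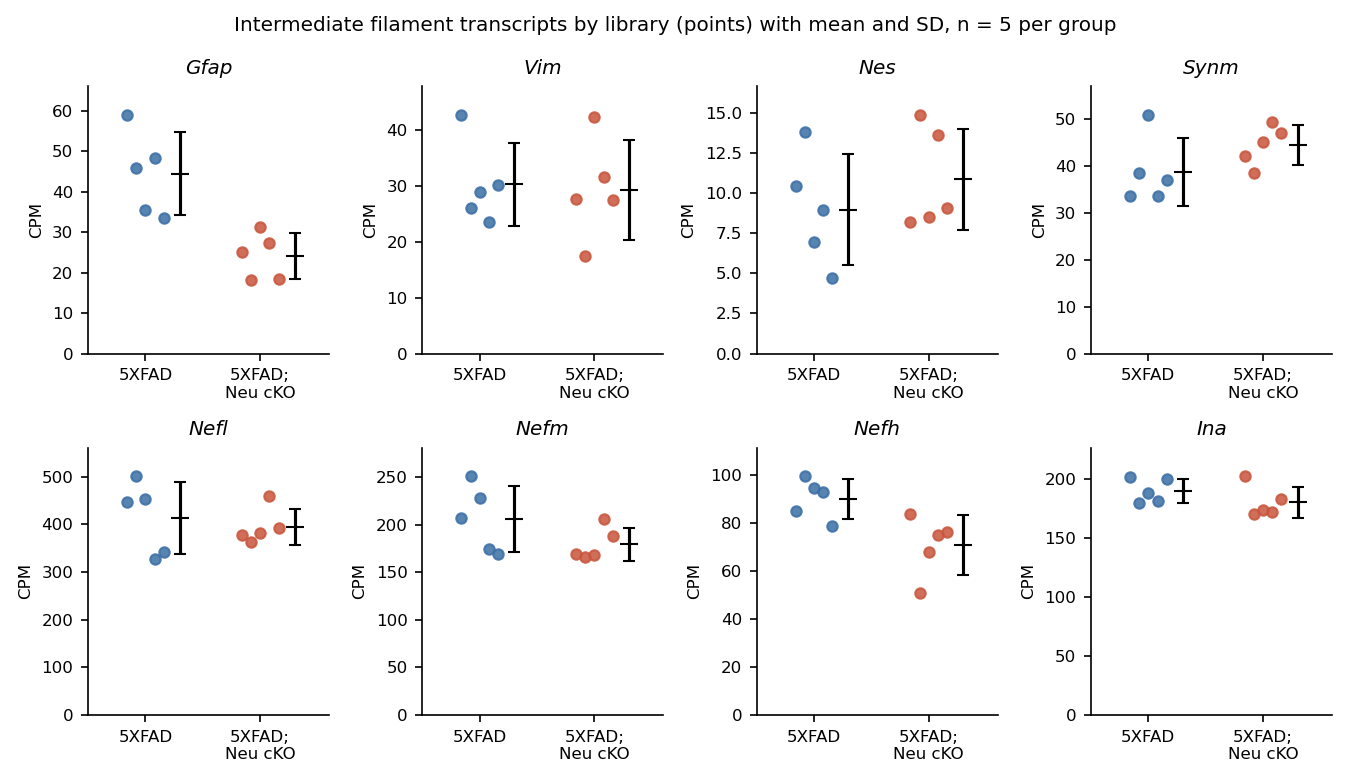
CPM of the 8 intermediate filament transcripts (vertical axes, each from 0) in the 5 libraries labelled 5XFAD and the 5 labelled 5XFAD;Neu cKO, one point per library, with the group mean and SD beside the points. The *Gfap* points of the labels do not overlap, with 31.4 CPM as the highest of 5XFAD;Neu cKO and 33.7 CPM as the lowest of 5XFAD, whereas the points of the other 7 genes do.

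The first of the glial filaments is *Gfap*, whose protein is the main filament of mature and reactive astrocytes. It stood at 59.1, 46.0, 35.5, 48.5 and 33.7 CPM in the libraries labelled 5XFAD, replicates 1 to 5. In replicates 1 to 5 labelled 5XFAD;Neu cKO it stood at 25.1, 18.2, 31.4, 27.4 and 18.5 CPM. Every library of the second group thus lay below every library of the first, a separation shown by 1.3% of all genes tested.

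The group means were 44.5 ± 10.4 CPM and 24.1 ± 5.72 CPM (SD, n = 5), and the fitted log2 fold change was -0.88 ± 0.17 (SE; 95% interval -1.21 to -0.55). The level was 45.7% lower, with an adjusted p of 0.00202 in the quasi-likelihood test of edgeR, and *Gfap* ranked 19 by p among the genes tested. The exact permutation test on the log2 CPM gave p = 0.00794 (two-sided, n = 5 per group), the smallest that these group sizes allow. Leaving out any 1 library left *Gfap* past the threshold, with log2 fold changes from -0.997 to -0.76. The summed level of 12 microglial genes was also lower under the same label, at 293 to 376 CPM against 422 to 653 CPM, and their part in the *Gfap* value was not tested. In bulk tissue, fewer cells of a type and less RNA per cell cannot be told apart.

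Vimentin, encoded by *Vim*, co-polymerizes with GFAP in reactive astrocytes and is also the filament of endothelial cells. Its level was 42.8, 26.0, 28.9, 23.7 and 30.3 CPM in replicates 1 to 5 labelled 5XFAD. The libraries labelled 5XFAD;Neu cKO gave 27.7, 17.5, 42.4, 31.6 and 27.6 CPM, and the groups overlapped over most of their range. The log2 fold change was -0.04 ± 0.18 (SE; adjusted p = 0.988). Its interval before adjustment ran from -0.40 to 0.32, so a difference in either direction within these bounds remained possible. The sign of this value turned without 5XFAD replicate 1 (0.11) and without 5XFAD;Neu cKO replicate 2 (0.094).

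*Gfap* and *Vim* were also set against each other inside each library. The ratio was chosen after their values were seen, so it is given as a description with no test. The log2 ratio of *Gfap* to *Vim* was 0.15 to 1.02 in the libraries labelled 5XFAD and -0.57 to 0.058 in those labelled 5XFAD;Neu cKO. The group means were 0.55 ± 0.36 and -0.26 ± 0.25 (SD, n = 5), a difference of -0.80, and the groups did not overlap.

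Nestin, the product of *Nes*, marks neural progenitors and vessel cells and appears in some reactive astrocytes. With 21 to 81 reads per library it was the least counted of the 8 genes, so that counting error alone gives a relative error of 21.8% at its lowest count. Its CPM ran from 4.71 through a median of 8.95 to 13.8 under the 5XFAD label and from 8.23 through 9.05 to 14.9 under the 5XFAD;Neu cKO label. The log2 fold change of 0.28 ± 0.28 (SE; adjusted p = 0.905) had an interval from -0.29 to 0.85, the widest of the 8.

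Synemin, from *Synm*, cannot form filaments alone and links vimentin, GFAP or desmin polymers to membrane complexes. It was at 33.5, 38.5, 50.9, 33.6 and 37.0 CPM in replicates 1 to 5 labelled 5XFAD. In those labelled 5XFAD;Neu cKO it was at 42.1, 38.4, 45.0, 49.5 and 47.0 CPM. 5XFAD replicate 3 lay above the whole other group and apart from its own, and 3 of the rest of its group lay below all of the other. With 0.19 ± 0.14 (SE; interval -0.087 to 0.48; adjusted p = 0.835) the difference did not pass.

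**Figure D2:**
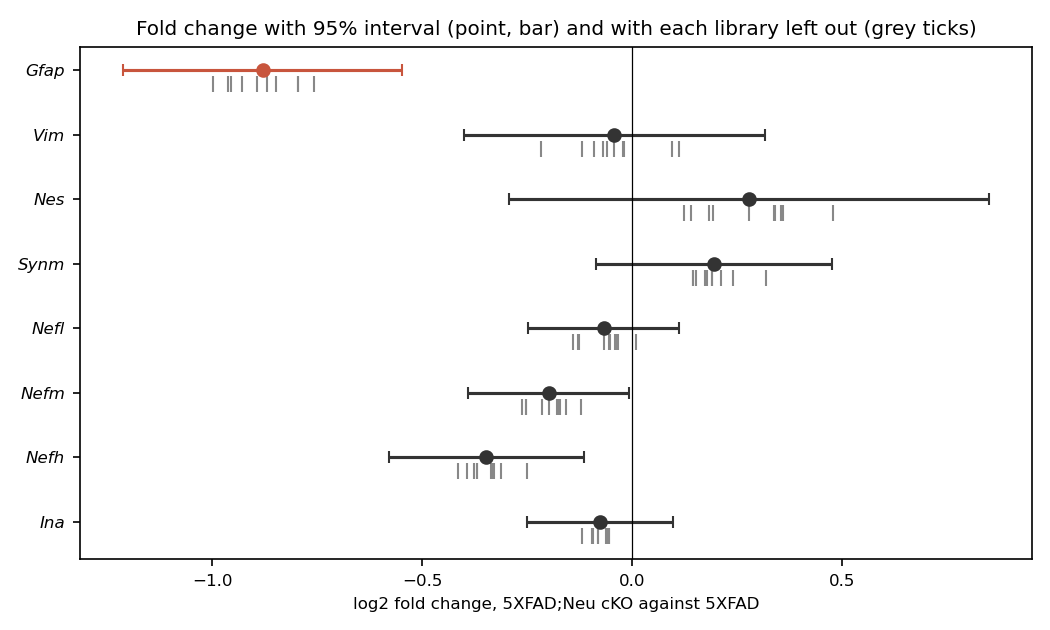
Log2 fold change of the 8 genes (points, horizontal axis; 5XFAD;Neu cKO against 5XFAD) with 95% intervals from the fit over all genes, and the same value with each library left out in turn (grey ticks). *Gfap*, in red, is the gene past an adjusted p of 0.05, and the intervals of *Nefm* and *Nefh* lie below 0 before adjustment.

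Among the neuronal filaments the light subunit was the most abundant. *Nefl*, whose protein is needed for neurofilaments to form, was at 446, 501, 453, 328 and 342 CPM in replicates 1 to 5 labelled 5XFAD. Replicates 1 to 5 labelled 5XFAD;Neu cKO gave 379, 363, 382, 459 and 393 CPM, all inside the range of the other group. The fitted difference was -0.07 ± 0.090 on the log2 scale (SE; interval -0.25 to 0.11; adjusted p = 0.944), and its sign turned without 5XFAD replicate 2, at 0.0082.

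*Nefm* encodes the medium subunit, which has a longer tail that carries phosphate groups. It stood at 207.2, 251, 229, 175.0 and 169 CPM under the 5XFAD label and at 169, 166, 168, 206.5 and 188 CPM under the 5XFAD;Neu cKO label, replicates 1 to 5. The groups overlapped, and 3 libraries labelled 5XFAD lay above all of the others. The log2 fold change of -0.20 ± 0.096 (SE) had an unadjusted p of 0.0428 and an adjusted p of 0.606, so it did not pass.

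*Nefh*, the gene of the heavy subunit, whose tail spaces neurofilaments in thick myelinated axons, had the most negative value after *Gfap*. It was at 85.1, 99.7, 94.7, 93.0 and 78.8 CPM in replicates 1 to 5 labelled 5XFAD. The values for 5XFAD;Neu cKO were 84.1, 50.8, 68.1, 75.0 and 76.6 CPM. Replicate 1 labelled 5XFAD;Neu cKO alone reached into the range of the controls, and the other 4 lay below it.

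For *Nefh* the means were 90.3 ± 8.30 CPM and 70.9 ± 12.6 CPM (SD, n = 5), with a fitted difference of -0.35 ± 0.12 on the log2 scale (SE; interval -0.58 to -0.12). Its unadjusted p was 0.00405. Adjusted over all genes p was 0.333 with edgeR and 0.163 with DESeq2, so the difference did not pass with either tool. The exact permutation test of this gene by itself gave p = 0.0159 (two-sided, n = 5 per group). Without 5XFAD;Neu cKO replicate 2, the lowest library, the log2 fold change was -0.25.

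Alpha-internexin, the product of *Ina*, is a partner of the neurofilament triplet in central neurons. It was the steadiest of the 8, with a coefficient of variation of 5.42% under the 5XFAD label and 7.35% under the 5XFAD;Neu cKO label. Its CPM ran from 179 to 202, with a median of 188, in the first group and from 170.0 to 202, with a median of 174, in the second. The difference of -0.08 ± 0.087 on the log2 scale did not pass (SE; interval -0.25 to 0.097; adjusted p = 0.924).

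Reads from 3′ ends allow the levels of the genes to be set side by side as CPM with no division by length, apart from unequal priming at each end. *Nefl* led with 405 ± 57.0 CPM (SD over the 10 libraries) and was above *Nefm* in 10 of 10. *Nefm*, at 193 ± 29.5 CPM, and *Ina*, at 185 ± 12.3 CPM, could not be ordered, since *Nefm* was higher in 5 of the 10. *Nefh* followed with 80.6 ± 14.3 CPM, below *Ina* in every library. *Synm* (41.6 ± 6.33 CPM), *Gfap* (34.3 ± 13.4 CPM) and *Vim* (29.9 ± 7.79 CPM) overlapped, and *Nes* was the lowest with 9.92 ± 3.28 CPM.

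The balance of the neuronal subunits was then examined inside each library, where library scaling drops out. Of the summed CPM of the 4 neuronal genes, *Nefl* took 45.7% ± 2.78 (SD, n = 5) under the 5XFAD label and 47.8% ± 1.84 under the 5XFAD;Neu cKO label. *Nefm* took 22.8% ± 1.21 and 21.7% ± 0.964, and *Nefh* 10.1% ± 1.11 and 8.56% ± 1.22. *Ina* held 21.4% ± 3.09 and 21.9% ± 1.96. *Nefl* thus made up the largest share in both groups.

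*Nefm* was slightly lower against *Nefl*. The log2 ratio was -1.11, -0.996, -0.988, -0.90 and -1.02 in replicates 1 to 5 labelled 5XFAD, and -1.16, -1.12, -1.18, -1.15 and -1.07 in those labelled 5XFAD;Neu cKO. Of the second group 4 libraries lay below all of the first. The difference of -0.13 on the log2 scale was small beside that of *Gfap*, but the spread was smaller still, with SDs of 0.072 and 0.045 (exact two-sided permutation test, p = 0.0159, adjusted p = 0.0476 over 6 ratios, n = 5 per group). The adjusted p was above 0.05 in 7 of the 10 sets that left out 1 library, reaching 0.0952 without 5XFAD replicate 4.

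*Nefh* against *Nefl* showed a larger difference with a larger spread, -0.31 on the log2 scale, with means of -2.18 ± 0.23 and -2.49 ± 0.25 (SD, n = 5; exact two-sided permutation test, p = 0.0714, adjusted p = 0.107). *Nefh* against *Nefm* differed by -0.17 (exact p = 0.238, adjusted p = 0.286) and *Ina* against *Nefl* by -0.02 (exact p = 0.905, adjusted p = 0.905). These 3 ratios did not pass, and the groups overlapped in each.

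*Nefl* and *Nefm*, neighbours on chromosome 14, moved together from library to library. Over the 10 libraries Pearson's r of their log2 CPM was 0.904 (permutation test, p = 0.00039, adjusted p = 0.00234 over the 6 pairs of neuronal genes) and Spearman's rho was 0.782 (p = 0.0105, adjusted p = 0.0402). Without the 2 libraries farthest from the median of *Nefl*, r was 0.842. The pair of *Nefm* and *Nefh* had r = 0.611 (permutation test, p = 0.0548, adjusted p = 0.164) and rho = 0.770 (p = 0.0134, adjusted p = 0.0402). Without the 2 libraries farthest from the median of *Nefm*, which also narrows the range, r fell to 0.332. Inside the groups r was 0.401 (5XFAD;Neu cKO) and 0.728 (5XFAD). Both genes were lower by sign under the 5XFAD;Neu cKO label, and the pooled values include that difference. The other 4 pairs had r from -0.076 to 0.470 and did not pass. The pooled 0.470 belonged to *Nefh* and *Ina*, whose r inside the groups had opposite signs, 0.702 (5XFAD;Neu cKO) and -0.882 (5XFAD). These values inside the groups were not tested. These values share library scaling.

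With each gene centred on its group means, the 3 of 8837 genes at 10 CPM or more whose pattern over the 10 libraries was most like *Nefl* were *Nefm* (r = 0.959), *Echs1* (r = 0.933) and *Gas7* (r = 0.929). For *Gfap* they were *Pcgf6* (r = 0.966), *Dctn2* (r = 0.944) and *Cep135* (r = 0.917), and *Vim* reached r = 0.652. Likeness to *Gfap* was low for *Nefl* (r = 0.261), *Nefh* (r = 0.314) and *Synm* (r = -0.242). These r are the highest of many and are given as a description.

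**Figure D3:**
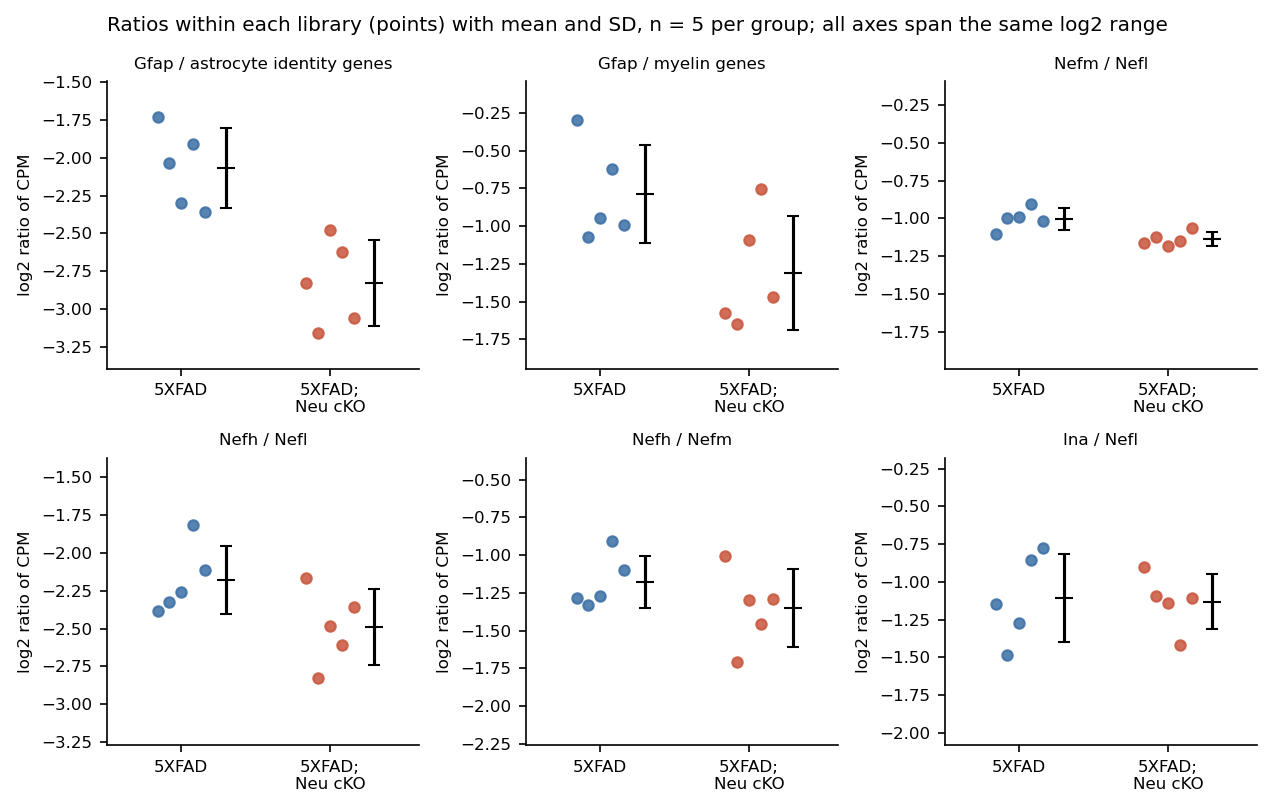
Log2 ratios inside each library for the 6 ratios that were tested, so without that of *Gfap* to *Vim* (vertical axes of equal span), one point per library with group mean and SD, n = 5 per group. The points of *Gfap* to astrocyte identity genes separate the groups, those of *Nefm* to *Nefl* differ by 0.13 with little spread, and those of the other 4 ratios overlap more widely.

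*Gfap* was next compared with the cell type that makes it. Over all genes tested, 50.1% were lower by sign and 7.95% had an unadjusted p under 0.05. These shares stand beside the list counts here and below. Of 15 genes taken as markers of astrocyte identity, 0 were called with edgeR and 4 had an unadjusted p under 0.05. By sign 12 were lower and 3 higher, and the median log2 fold change was -0.13. Whether the levels of these genes depend on astrocyte state was not tested. DESeq2 called 1 of them, *Acsl3*, a lipid-activating enzyme chosen after its values were seen (log2 fold change -0.33, adjusted p = 0.00555, against 0.0630 with edgeR), which edgeR also called with no filter on low counts (adjusted p = 0.0287). The glutamate transporter *Slc1a2* (-0.04), the glycolytic enzyme *Aldoc* (-0.06) and glutamine synthetase, *Glul* (0.08), were the most abundant of them. The summed level of the 15 was 6222 to 6857 CPM under the 5XFAD;Neu cKO label and 6250 to 7306 CPM under the 5XFAD label, with the same median, 6653 CPM. Most of that sum came from *Slc1a2*, *Glul* and *Aldoc*, so it says little about the less abundant genes of the list.

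Set against the mean of these 15 genes, *Gfap* was at log2 ratios of -1.73, -2.03, -2.30, -1.91 and -2.36 in replicates 1 to 5 labelled 5XFAD. In those labelled 5XFAD;Neu cKO the ratios were -2.83, -3.16, -2.48, -2.62 and -3.06, each below all of the other group. *Gfap* was thus lower by 0.76 on the log2 scale against other astrocyte transcripts of the same library (exact two-sided permutation test, p = 0.00794, adjusted p = 0.0476 over 6 ratios, n = 5 per group). Without 5XFAD replicate 2 or 4 the adjusted p was 0.0714 or 0.0952. *Gfap* alone had already separated the groups before this ratio was taken, so the ratio is not separate support for its difference.

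Genes of astrocyte reactivity gave 1 call. Of 14 tested, 9 were lower and 5 higher, and the one called was *Ctsd*, the lysosomal protease cathepsin D, which other brain cells also make (log2 fold change -0.69, adjusted p = 5.24e-07). The summed level of the 14 was 262 to 318 CPM under the 5XFAD;Neu cKO label and 393 to 489 CPM under the 5XFAD label, most of it *Ctsd*. Without it, 0 of 13 were called (1 had an unadjusted p under 0.05), 8 were lower and 5 higher, and their summed level was 71.5 to 97.2 CPM under the 5XFAD;Neu cKO label and 77.4 to 91.9 CPM under the 5XFAD label. The most abundant of these were *Cp*, ceruloplasmin (-0.11), and the fatty acid binding protein gene *Fabp7* (0.36, adjusted p = 0.700). The complement gene *C4b*, a marker of plaque-associated astrocytes chosen here after its values were seen, was at 6.56 and 10.8 CPM (log2 fold change -0.70, adjusted p = 0.553). Most genes of this list were weakly counted, and DESeq2 gave no adjusted p for 12 of the 14. The lack of calls therefore says little about them.

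Of 16 regulators of *Gfap* transcription 0 were called and 3 had an unadjusted p under 0.05. The most abundant were *Nfib* (log2 fold change 0.01) and *Nfix* (-0.13), nuclear factor I proteins of glial differentiation, and the cytokine receptor kinase *Jak1* (-0.05). *Stat3*, the transcription factor that drives *Gfap* in reactive astrocytes and was chosen after its values were seen, was at 49.7 and 58.3 CPM (log2 fold change -0.23, adjusted p = 0.677).

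Some markers of other cells were lower under the same label. All 12 microglial genes were lower by sign, with a median of -0.68, 10 had an unadjusted p under 0.05 and 5 were called. These were the chemokine receptor *Cx3cr1* (-0.51), the signalling adaptor *Tyrobp* (-1.10), the complement genes *C1qb* (-1.21) and *C1qc* (-0.82) and the lysosomal protease *Ctss* (-0.91). Of these, *Tyrobp*, *C1qb* and *Ctss* stayed past the threshold without any 1 library, while *Cx3cr1* did not without 5XFAD replicate 2 or 5XFAD;Neu cKO replicate 3, 4 or 5 (adjusted p up to 0.231) and *C1qc* did not without 5XFAD replicate 4 or 5XFAD;Neu cKO replicate 5 (up to 0.0984). All 12 myelin genes were lower by sign too, with a median of -0.34, 8 had an unadjusted p under 0.05 and 1, *Mal*, a proteolipid of myelin, was called (-0.48, adjusted p = 0.0427). The call of *Mal* was lost with edgeR's own filter on low counts (adjusted p = 0.0989) and in 8 of the 10 sets that left out 1 library, all but those without 5XFAD replicate 3 or 5XFAD;Neu cKO replicate 1 (adjusted p from 0.00440 to 0.350). Their summed level overlapped, at 1897 to 2973 CPM under the 5XFAD;Neu cKO label and 2157 to 3139 CPM under the 5XFAD label, with *Mbp* at -0.28. No gene of either list was at 0 in every library.

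Because white matter is rich in both myelin and *Gfap*, the ratio of *Gfap* to the mean of the 12 myelin genes was taken as well. It was -0.79 ± 0.32 under the 5XFAD label and -1.31 ± 0.38 under the 5XFAD;Neu cKO label (SD, n = 5), a difference of -0.52 that did not pass (exact two-sided permutation test, p = 0.0556, adjusted p = 0.107). The groups overlapped by 1 library, replicate 4 labelled 5XFAD;Neu cKO at -0.76. The part of myelin-rich tissue or of microglia in the *Gfap* and *Nefh* values was not tested further.

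**Figure D4:**
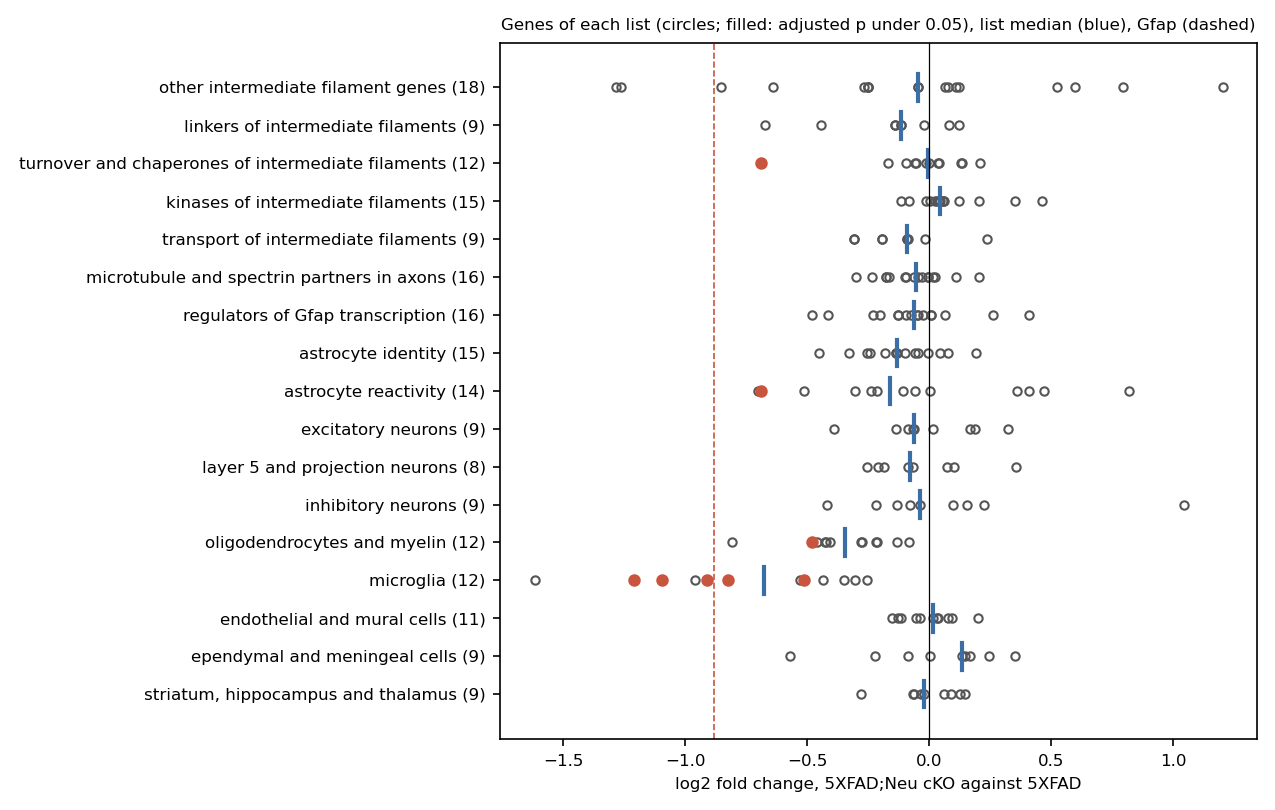
Log2 fold changes (horizontal axis) of the genes of 17 lists, with the number tested in brackets; filled circles are genes past an adjusted p of 0.05, blue bars are list medians and the dashed line is *Gfap*. Microglial and myelin genes lie left of 0 throughout, and *Ctsd*, which stands in both the turnover and the reactivity list, is the called gene of each.

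*Vim*, *Nes* and *Synm* are also made by cells of vessels and brain borders. Of 11 endothelial and mural genes 0 were called (0 with an unadjusted p under 0.05), and their median was 0.014, with *Flt1* (0.01), *Rgs5* (0.09) and *Slco1a4* (-0.13) the most abundant. Of 9 ependymal and meningeal genes 0 were called and 1 had an unadjusted p under 0.05, *Ptgds* (-0.22), with a median of 0.13. Markers of striatum, hippocampus and thalamus, which a dissection of cortex can include, had a median of -0.023 with 0 of 9 called and 0 under an unadjusted p of 0.05.

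Neuronal lists gave the setting for the neurofilament genes. Of 9 genes of excitatory neurons 0 were called (2 with an unadjusted p under 0.05; median -0.064), among them *Slc17a7* (-0.06), *Camk2a* (-0.07) and *Nrgn* (-0.09). Of 8 genes of layer 5 and other projection neurons, which hold much neurofilament, 0 were called (2 with an unadjusted p under 0.05; median -0.078), with *Bcl11b* at 0.10 and *Pcp4* at -0.09. Of 9 genes of inhibitory neurons 0 were called (3 with an unadjusted p under 0.05; median -0.038), with the GABA-synthesizing enzymes *Gad1* at 0.22 and *Gad2* at 0.10. The log2 fold change of *Nefh* lay below all 3 medians, and its difference from them was not tested.

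Partners of neurofilaments in the axon showed small values. Of 9 genes for the motors that carry them 0 were called with edgeR, 8 were lower by sign and 4 had an unadjusted p under 0.05, with a median of -0.091. The kinesins *Kif5a*, *Kif5b* and *Kif5c*, which move neurofilaments outward, had log2 fold changes of -0.19, -0.19 and -0.02. *Dync1h1*, the heavy chain of the inward motor dynein, chosen after its values were seen, was lower by sign at -0.31 (unadjusted p = 0.000549, adjusted p = 0.129 with edgeR), and DESeq2 called it (adjusted p = 0.0312). Of 16 microtubule and spectrin partners 0 were called, 12 were lower and 5 had an unadjusted p under 0.05, with *Sptbn1* at -0.24 (adjusted p = 0.229), *Map2* at -0.09 and *Map1b* at -0.06.

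Genes of filament kinases were listed with their activators and the phosphatase gene *Ppp2ca*. By sign 12 of 15 were higher, by small amounts for most of them, while 50.1% of all genes were lower. Of the 15, 0 were called with edgeR and 2 had an unadjusted p under 0.05, with a median of 0.045. The kinase activators *Cdk5r1* (0.05) and *Cdk5r2* (0.00) and the kinase *Gsk3b* (0.06) were the most abundant. Linkers that tie filaments to other structures, such as *Dst* (-0.14), *Macf1* (-0.14) and *Dtna* (0.08), gave 0 of 9 called, 0 under an unadjusted p of 0.05 and a median of -0.12. Of 12 genes of turnover and chaperoning 1 was called, again *Ctsd*, with a median of -0.0057, and *Trim2*, a ligase of NEFL, was at 0.00.

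Other intermediate filament genes were scarce in cortex. Of 59, mostly keratins, 18 passed the filter and 33 keratin genes had no read in any library. The nuclear lamin *Lmna* (21.97 and 20.4 CPM) and the keratins *Krt222* (22.6 and 23.2 CPM) and *Krt12* (12.3 and 14.6 CPM) were the most abundant, in libraries labelled 5XFAD;Neu cKO and 5XFAD respectively. Of the 18, 0 were called and 0 had an unadjusted p under 0.05, with a median log2 fold change of -0.044. In the lists where edgeR called 0 genes, DESeq2 called at most 1 in each, and it gave no adjusted p for many weakly counted genes, among them 17 of these 18.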

How the data were processed

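Cortical RNA of 10 mice was read with the QuantSeq 3′ FWD kit. The authors trimmed reads with bbduk, aligned them with STAR to GRCm39 and assigned them to Ensembl genes by htseq-count (HTSeq 0.9.1 in the submitters' processing notes; the paper names a later release). The deposited values are raw counts; the strand setting of the counting is not given in the sources used here. Symbols and places come from GENCODE M39, of the same build.

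Genes with a total above 10 were kept (19268) and compared with edgeR 4.0.16 in R 4.3.3 (quasi-likelihood test, TMM, group as the only term, Benjamini-Hochberg over all genes, threshold 0.05). Log2 CPM used a prior count of 2. DESeq2 1.42.0, other filters and scaling, a robust fit, a replicate block and leaving out libraries were the alternatives. Reads on no gene were 31.3% to 39.9% of those kept by the counting and entered no test; mitochondrial genes took 20.2% to 25.1% of counted reads. Replicates differed by more than sampling noise (chi-square per degree of freedom of at least 5.87). In simulated counts edgeR recovered 25.7% of genes changed by 0.5 and 74.0% of those changed by 1 on the log2 scale (3 runs each). Of the calls, 11.3% and 6.92% were false, both above the share that the threshold aims at. The changed genes were drawn from well counted ones, so recovery of weakly counted genes was not measured.

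The members and lists were chosen with earlier results of these data known. Named genes are the 8 members, *Mylip*, called genes and the 3 most abundant of each list, and the 3 genes most like *Gfap* and *Nefl*; others are marked as chosen after their values were seen. A few genes and 1 sequence that these rules cover are not reported here. Replicates are separate mice by their labels' numbers, which do not pair them across groups. Intervals cover the spread between libraries, counting error included.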

Additional observations from a re-analysis of the deposited data

Results flagged for a closer look

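Among 28 sets of 5 values examined, 1 held a library far from the others, where chance gives about 1 in 20. *Synm* was at 50.9 CPM in 5XFAD replicate 3, and the gap to the next library was 0.716 of the range of its group.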

How the results depend on the processing

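*Gfap* was the 1 member called under every alternative tried, with log2 fold changes from -0.997 to -0.76 over the 10 sets that left out a library. The number of all genes called was 42 with edgeR, 73 with DESeq2, 103 with no filter on low counts and 112 with the replicate number as a block, and ran from 26 to 72 with a library left out. Same-numbered libraries did not deviate together (r from -0.078 to 0.054), so the numbers do not pair them. In that block *Gfap* was at -0.88 (adjusted p = 3.2e-05) and *Nefh* at -0.36 (adjusted p = 0.180), and the ratios of *Gfap* to astrocyte identity genes (-0.76) and of *Nefm* to *Nefl* (-0.13) had adjusted p = 0.125 in an exact sign-flip test that cannot go below 0.0625 unadjusted. With a library left out, *Gfap* to astrocyte identity genes ran from -0.85 to -0.68, *Gfap* to myelin genes from -0.66 to -0.40 (past the threshold without 5XFAD;Neu cKO replicate 4, adjusted p = 0.0238), *Nefm* to *Nefl* from -0.16 to -0.11 and *Ina* to *Nefl* from -0.12 to 0.058, with the sign turning without 5XFAD replicate 4 or 5 or 5XFAD;Neu cKO replicate 4; *Vim* ran from -0.22 to 0.11 and *Nefl* from -0.14 to 0.0082. The causes were not tested. Without *Ctsd* the median of the reactivity list was -0.11 in place of -0.16, an alternative chosen after seeing the data. DESeq2 gave *Nes* a log2 fold change of 0.28 (unadjusted p = 0.366) and no adjusted p. Depth limits *Nes* most.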
